A study of Homo sapiens with 12 samples.

Results

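Lysosomal transcripts were followed in 2 human prostate cancer cell lines treated with palbociclib or with its solvent dimethyl sulfoxide (DMSO). The 43 genes were taken by name from a fixed list: 15 encode the vacuolar proton pump (V-ATPase, names starting ATP6), 20 encode hydrolases, 2 encode sphingolipid activators and 6 encode membrane proteins of the lysosome. All 43 were found in both count tables, out of 57167 genes in the DU145 table and 61860 in the C4-2 table, with 56747 identifiers in both. Palbociclib inhibits the kinases CDK4 and CDK6, and the study asked how these kinases act on STING signaling with and without RB1.

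Each line (C4-2 or DU145) had a palbociclib group and a DMSO group, and all cells were kept in RPMI-1640 medium with fetal bovine serum. C4-2 is known as an LNCaP derivative that keeps RB1, and DU145 as a line that lacks functional RB1. The sources used here do not give the dose or duration of treatment. Of 12 libraries, 1 (C4-2 DMSO replicate 3) was 0 in every gene, which left 3 palbociclib and 2 DMSO libraries for C4-2 and 3 of each for DU145. No label says that the replicates were separate cultures, and p-values then measure only how far these libraries scatter, which may be technical.

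Totals were 2608851 to 3489659 counts per library labelled C4-2 and 16108999 to 16674393 per DU145 library, so the C4-2 values carry more counting error. The luminal prostate genes KLK3, KLK2, ACP3 and FOLH1 were at 0 in all 5 libraries labelled C4-2, while the summed level of 7 mesenchymal markers was 24680 to 27141 CPM (a gene's counts scaled by the library total). These markers go against the label, and the set is therefore called the libraries labelled C4-2. In the DU145 libraries KLK3, KLK2, FOLH1 and TMPRSS2 were at 0. RNA was taken from whole cultures, so fewer cells of a type and less RNA per cell cannot be told apart.

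Lysosomes digest proteins, glycans and lipids with hydrolases that work at acid pH. The V-ATPase supplies the acid: its cytosolic V1 sector splits ATP, and its membrane V0 sector carries protons into the lumen. Accessory subunits help to assemble the pump, activator proteins present lipids to hydrolases, and heavily glycosylated membrane proteins line the organelle. Transcription factors of the TFEB and TFE3 family bind an E-box in the promoters of many of these genes, known as the CLEAR element, and in nutrient-rich cells the kinase mTORC1 keeps these factors in the cytoplasm.

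The promoters are shown first because some of the listed genes hold this element near their start. RefSeq promoters (GRCh38.p14, 250 bases before to 50 after the start) matched 30 of the 43 genes. The E-box core CACGTG, its extension TCACGTG and the full palindrome TCACGTGA were searched on both strands, and each longer motif contains the shorter ones. CACGTG was in 11 of the 30 promoters (36.67%), against 2030 of all 27305 promoters (7.43%). TCACGTG was in 10 of 30 (33.33%) against 3.82% of all promoters, and TCACGTGA was in 7 of 30 (23.33%) against 1.04%. The windows below, each of 30 bases on the gene's own strand, are from 8 of the 10 genes with TCACGTG or its reverse complement, and capitals mark the motif.
ATP6V1G1: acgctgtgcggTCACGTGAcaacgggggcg
ATP6V0B: accggcgtggggTCACGTGgtaccggcgca
ATP6V0D1: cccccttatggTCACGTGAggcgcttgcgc
CTSA: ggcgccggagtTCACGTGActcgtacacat
CTSD: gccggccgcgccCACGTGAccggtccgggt
GAA: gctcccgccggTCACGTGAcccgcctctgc
NEU1: gatgctgcgtgaTCACGTGggaggagatga
MCOLN1: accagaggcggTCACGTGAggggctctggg

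The V-ATPase windows lie at chr9:114587699-114587728 on the plus strand (ATP6V1G1), chr1:43974890-43974919 on the plus strand (ATP6V0B) and chr16:67481199-67481228 on the minus strand (ATP6V0D1). The protease windows lie at chr20:45891298-45891327 on the plus strand (CTSA) and chr11:1763957-1763986 on the minus strand (CTSD). Those of the glycosidases lie at chr17:80101538-80101567 on the plus strand (GAA) and chr6:31862931-31862960 on the minus strand (NEU1), and that of MCOLN1 at chr19:7522571-7522600 on the plus strand. The remaining genes with the longer motif were LAMP1 and CLN3, and CD63 held the core alone. Of 21 matches in all, 19 were centred before the start and 15 lay within 100 bases of it. TCACGTG was in 3 of 10 V-ATPase promoters and 4 of 14 hydrolase promoters.

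**Figure D1:**
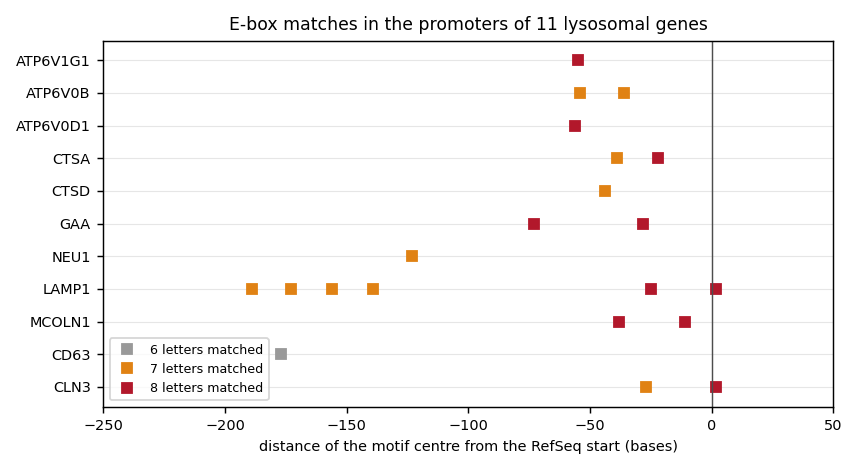
Position of each E-box match (squares, coloured by the number of motif letters matched) against the RefSeq start for the 11 genes that hold one; the x axis is in bases. Of 21 matches, 15 sit within 100 bases of the start, and LAMP1 holds 6.

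Most of these transcripts were higher with palbociclib in both lines. A gene was called where the adjusted p of edgeR's quasi-likelihood test was under 0.05. In the libraries labelled C4-2, 26 of 41 tested genes rose and 1 fell, where 25.3% of all tested genes rose and 26.7% fell. In DU145, 32 of 43 rose and 4 fell, where 28.8% rose and 29.2% fell among all tested genes. The median log2 fold change of the listed genes was 0.39 in C4-2 and 0.71 in DU145, beside 0.00 and -0.01 over all tested genes. The palbociclib libraries lay wholly above the DMSO libraries for 32 genes in each line, below them for 1 in C4-2 and 4 in DU145, and overlapped them for 10 and 7. The share of all genes with such separation was not counted, so these numbers only describe the listed genes. The 32 of C4-2 include NEU1, which had 1, 2 and 3 counts there against 0 and 0.

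Across lines, 19 genes rose in both: ATP6V1A, ATP6V1C1, ATP6V1G1, ATP6V1H, ATP6V0A1, ATP6V0D1, ATP6AP1, CTSA, CTSB, CTSD, CTSL, TPP1, HEXA, SGSH, PPT1, ASAH1, PSAP, LAMP1 and LAMP2. GUSB fell in both, and GLB1 and MANBA rose in C4-2 and fell in DU145. The iduronate sulfatase IDS and the acid sphingomyelinase SMPD1 were called in neither line. In a joint fit with an interaction term (the DU145 log2 fold change minus that in C4-2), the response differed between lines for 29 of the 43 genes. It was higher in DU145 for 20 and lower for 9, where 18.5% and 15.1% of the 18139 genes of the joint fit were called in these directions. That background includes genes too sparse for the C4-2 fit of 11943 genes, where a difference is hard to call. NEU1 and CLN3 are such genes among the 43, and neither was called.

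**Figure D2:**
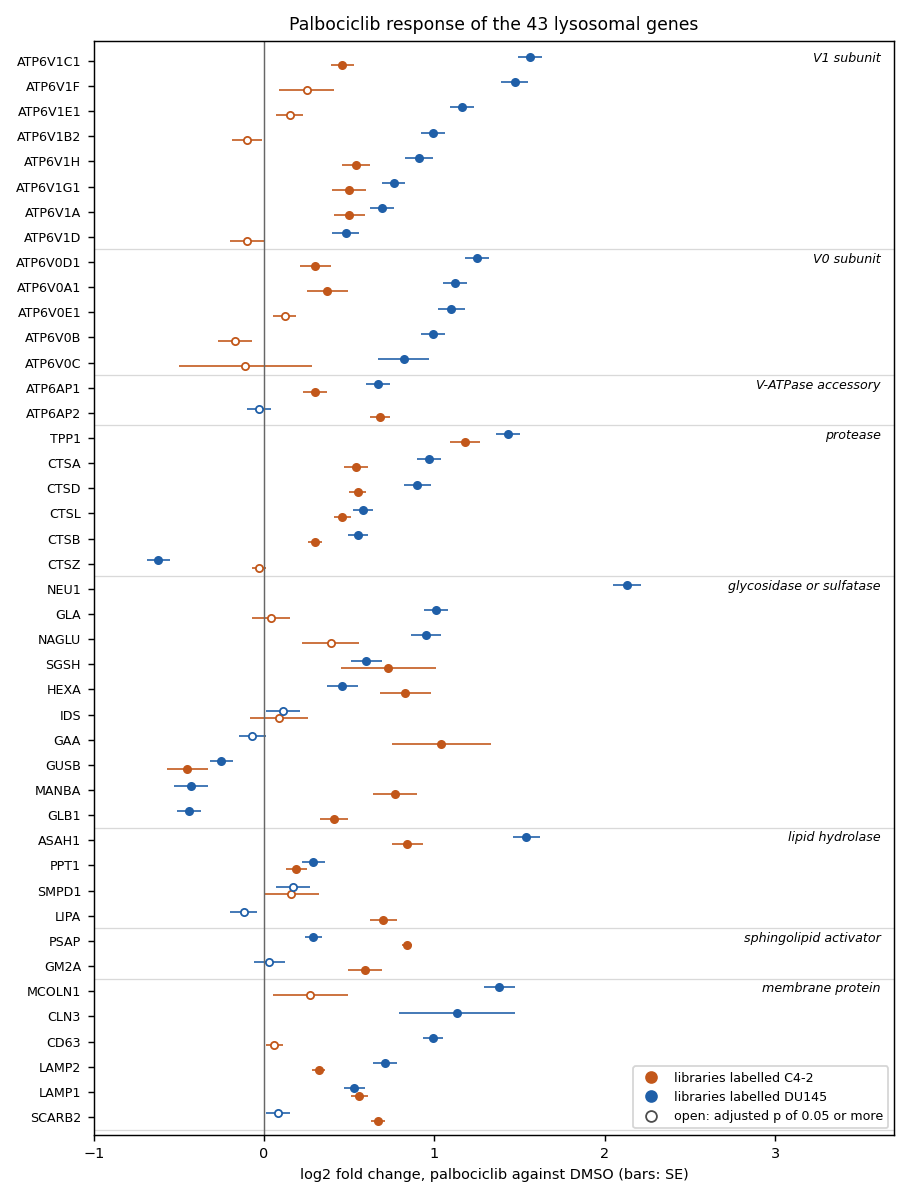
Log2 fold change of palbociclib against DMSO with its SE for each of the 43 genes, grouped by role, in libraries labelled C4-2 (orange) and DU145 (blue); open points have an adjusted p of 0.05 or more. NEU1 has the largest rise in DU145 (2.13), TPP1 has the largest in C4-2 (1.18), and NEU1 and CLN3 have no C4-2 point because too few reads were counted there.

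The V-ATPase and the hydrolases stood in opposite order in the 2 lines. Among the 15 V-ATPase genes, 8 rose and 0 fell in C4-2 (6 to 10 under other scalings, filters and tests, and 1 where a 1.5-fold change was also required), and 14 rose and 0 fell in DU145. The count lower was also 0 at an unadjusted p under 0.05 with edgeR and with DESeq2. Among hydrolases, 13 of 19 rose and 1 fell in C4-2, and 12 of 20 rose and 4 fell in DU145. The 1.5-fold limit left 7 higher hydrolases in C4-2. The median log2 fold change of the V-ATPase was 0.30 in C4-2 and 0.99 in DU145, and that of the hydrolases was 0.46 and 0.50. The response was called higher in DU145 for 11 V-ATPase genes and lower for 1, and higher for 6 hydrolases and lower for 5. The order of the class medians is a description without a test.

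The same order was present in each palbociclib library. As the median over genes tested in both lines of log2(CPM + 0.5) minus the mean of the DMSO libraries, the V-ATPase stood at 0.35, 0.42 and 0.35 in C4-2 palbociclib replicates 1, 2 and 3. The hydrolases stood at 0.54, 0.54 and 0.56 in those libraries. In DU145 the V-ATPase stood at 0.99, 0.97 and 0.91 and the hydrolases at 0.47, 0.40 and 0.34. Every palbociclib library of C4-2 had the hydrolases above the V-ATPase, and every one of DU145 had them below. The values of a line share the same DMSO mean, so they are not independent repeats of the comparison.

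**Figure D3:**
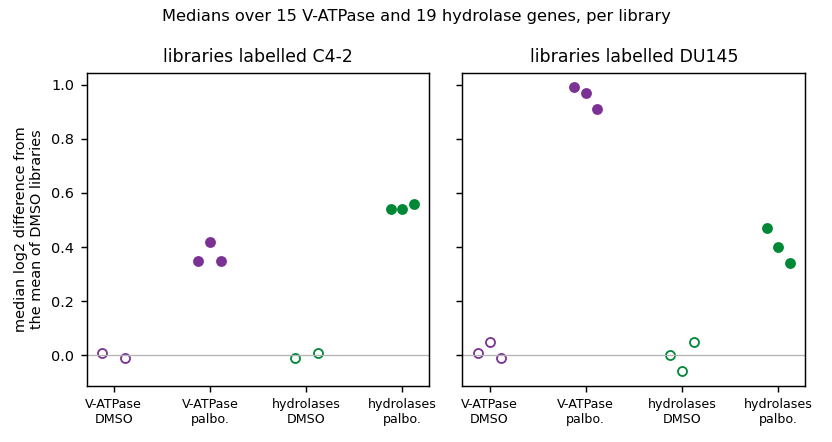
Median log2 difference from the mean of the DMSO libraries over 15 V-ATPase (purple) and 19 hydrolase genes (green), 1 point per library, filled for palbociclib. In DU145 the V-ATPase points are at 0.91 to 0.99 and the hydrolase points at 0.34 to 0.47, and in C4-2 the hydrolases are the higher class.

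Summed over the 15 V-ATPase genes, the level in DU145 went from 1121 to 1169 CPM with DMSO to 2101 to 2158 CPM with palbociclib. The C4-2 sum went from 1056 to 1081 CPM to 1341 to 1384 CPM. The sum of the 19 hydrolases tested in both lines, which leaves out NEU1, went from 1621 to 1691 CPM to 2221 to 2236 CPM in DU145, and from 2076 to 2086 CPM to 2708 to 2719 CPM in C4-2. None of these ranges overlapped between treatments within a line.

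All 8 subunits of the V1 sector rose in DU145, by 0.48 to 1.56 on the log2 scale, and 4 of 8 rose in C4-2. ATP6V1C1, the C subunit that joins the catalytic sector to the stator, had the largest rise of the sector in DU145. It was at 161, 167 and 146 CPM with palbociclib against 55.7, 53.4 and 54.2 CPM with DMSO. The groups were far apart, and the log2 fold change was 1.56 (SE 0.07, edgeR adjusted p = 1.15e-11). C4-2 libraries had ATP6V1C1 at 134, 140 and 130 CPM against 96.6 and 92.5 CPM, again without overlap (0.46, SE 0.07, adjusted p = 1.19e-07). The difference between lines was 1.14 (SE 0.11, adjusted p = 5.18e-11).

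ATP6V1F, a small subunit of the central stalk (chr7:128862826-128865844, plus strand, hg38), had the largest difference between lines among the called interactions. In DU145 it was at 154, 163 and 180 CPM with palbociclib and 54.8, 61.2 and 66.2 CPM with DMSO, a log2 fold change of 1.47 (SE 0.08, adjusted p = 1.26e-10). The C4-2 libraries had it at 25.6, 21.8 and 25.8 CPM against 17.8 and 22.5 CPM. These groups overlapped (0.25, SE 0.16, adjusted p = 0.196), and the interaction was 1.26 (SE 0.19, adjusted p = 1e-06). Of its exon bases, 23.7% are shared with KCP on the opposite strand. The C4-2 reads were counted without strand, so reads of the 2 genes in the shared bases cannot be told apart there. KCP was low, at a mean of 1.03 CPM in C4-2 and 3.74 CPM in DU145.

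ATP6V1H, a regulatory subunit, had the largest V1 rise in C4-2. It was at 125, 130 and 139 CPM against 85.4 and 91.2 CPM, with no overlap (0.54, SE 0.08, adjusted p = 3.13e-09). DU145 had ATP6V1H at 85.7, 73.5 and 77.4 CPM against 43.3, 45.2 and 39.5 CPM, also apart (0.91, SE 0.08, adjusted p = 2.89e-08). The interaction of 0.41 (SE 0.12, adjusted p = 0.00852) was lost without C4-2 DMSO replicate 2 (0.38, adjusted p = 0.0583). ATP6V1D, a stalk subunit, had the smallest V1 response. C4-2 libraries had it at 53.3, 50.2 and 57.7 CPM against 51.9 and 60.7 CPM, groups that overlapped (-0.10, SE 0.10, adjusted p = 0.448). DU145 libraries had it at 68.3, 68.2 and 59.6 CPM against 45.7, 50 and 47.3 CPM, without overlap (0.48, SE 0.08, adjusted p = 5.03e-05).

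The other V1 genes kept to the same division. ATP6V1A, the catalytic subunit, rose by 0.50 in C4-2 and 0.69 in DU145, and ATP6V1G1, a stator subunit, by 0.50 and 0.76. The nucleotide-binding subunit ATP6V1B2 was not called in C4-2 (-0.10, adjusted p = 0.376) and rose by 0.99 in DU145. ATP6V1E1, also of the stator, was likewise not called in C4-2 (0.15, adjusted p = 0.10) and rose by 1.16 in DU145. Its C4-2 value was called without palbociclib replicate 1 (0.20, adjusted p = 0.0398), with library totals (0.20, adjusted p = 0.0274) and with a stricter filter (0.17, adjusted p = 0.0475). For ATP6V1B2 and ATP6V1E1 the difference between lines was called (1.12 and 1.04). For ATP6V1A and ATP6V1G1 it was not, at 0.22 (SE 0.13) and 0.28 (SE 0.13). That of ATP6V1A was called with the replicate block (0.29, adjusted p = 0.0362) and that of ATP6V1G1 without DU145 palbociclib replicate 3 (0.32, adjusted p = 0.0436).

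Within the membrane sector V0, all 5 genes rose in DU145, by 0.82 to 1.25, and 2 of 5 rose in C4-2. ATP6V0D1, the subunit that couples V0 to the stalk (chr16:67438014-67481237, minus strand), led in DU145. It was at 148, 150 and 157 CPM against 63.7, 61.5 and 69.3 CPM, with the groups well apart (1.25, SE 0.07, adjusted p = 1.65e-10). The C4-2 libraries had it at 73.4, 82.4 and 78.4 CPM against 61.3 and 61.7 CPM. That smaller rise (0.30, SE 0.09, adjusted p = 0.00477) was not called by DESeq2 (adjusted p = 0.0896). The difference between lines was 0.98 (SE 0.13, adjusted p = 2.35e-08).

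ATP6V0B, a subunit of the proton-carrying ring (chr1:43974487-43978295, plus strand), rose in DU145 alone, and the difference between lines was itself called. DU145 libraries held 187, 190 and 194 CPM against 97.4, 95.2 and 98.7 CPM, a tight separation (0.99, SE 0.07, adjusted p = 6.21e-10). The C4-2 libraries held 61.3, 58.3 and 60.1 CPM against 59.3 and 72.3 CPM, groups that overlapped (-0.17, SE 0.10, adjusted p = 0.132). The interaction was 1.20 (SE 0.12, adjusted p = 1.04e-10). Without C4-2 DMSO replicate 1, ATP6V0B was called lower in C4-2 (-0.32, adjusted p = 0.0248). Both of its E-boxes lie within 100 bases of the start.

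The remaining V0 genes rose in DU145 by 1.12 (ATP6V0A1, the large membrane subunit), 1.10 (ATP6V0E1) and 0.82 (ATP6V0C, another ring subunit). In C4-2 only ATP6V0A1 of these was called (0.37, adjusted p = 0.00628), and it did not pass with DESeq2 (adjusted p = 0.10). Leaving out DMSO replicate 2 also ended that call (0.30, adjusted p = 0.0937). ATP6V0E1 in C4-2 (0.12, adjusted p = 0.117) was called without palbociclib replicate 2 (0.17, adjusted p = 0.0432). ATP6V0C was sparse in C4-2, at 1.73 to 7.67 CPM with palbociclib and 4.30 and 4.97 CPM with DMSO. Of its exon bases 72.1% are shared with other genes of the same strand, so its level is uncertain.

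The accessory subunits moved differently from each other. ATP6AP2, the (pro)renin receptor that takes part in V-ATPase assembly (chrX:40579372-40606848, plus strand), had the largest C4-2 rise of any V-ATPase gene. It was at 224, 196 and 215 CPM against 132 and 123 CPM, with no overlap (0.68, SE 0.06, adjusted p = 5.3e-16). In DU145 its groups overlapped, at 124, 122 and 114 CPM against 132, 128 and 113 CPM (-0.03, SE 0.07, adjusted p = 0.743). The difference between lines was -0.68 (SE 0.11, adjusted p = 2.66e-06), the only V-ATPase gene called in that direction. ATP6AP1, which also serves assembly, rose by 0.30 in C4-2 and 0.67 in DU145.

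**Figure D4:**
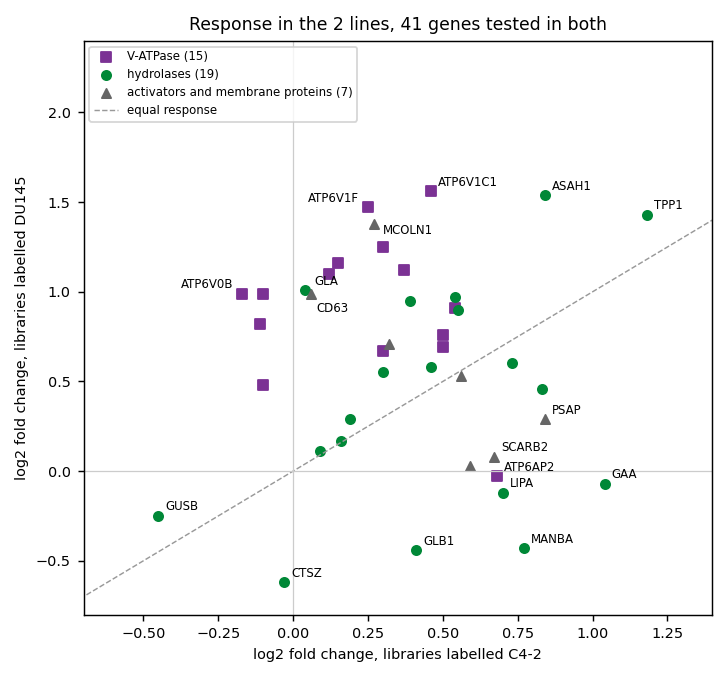
Log2 fold change in C4-2 (x axis) against that in DU145 (y axis) for the 41 genes tested in both, with V-ATPase genes as squares, hydrolases as circles and other genes as triangles. Most squares lie above the dashed line of equal response, ATP6AP2 lies below it, and GLB1 and MANBA sit at positive x and negative y.

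Of the 6 lysosomal proteases, 5 rose in each line and CTSZ did not. TPP1, the tripeptidyl peptidase lost in a childhood form of Batten disease (chr11:6612763-6619485, minus strand), rose most in both. C4-2 libraries held 107 CPM in each of the 3 palbociclib replicates against 47.3 and 43.4 CPM (1.18, SE 0.09, adjusted p = 6.51e-20). DU145 libraries held 196, 190 and 191 CPM against 72.4, 69.2 and 75.9 CPM (1.43, SE 0.07, adjusted p = 1.6e-11). The groups were far apart in both lines, and the interaction of 0.28 (SE 0.12, adjusted p = 0.0754) did not pass the threshold. It did with the replicate number as a block (0.29, adjusted p = 0.0428) and without DU145 DMSO replicate 3 (0.31, adjusted p = 0.0393).

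CTSZ, the carboxypeptidase cathepsin Z, fell in DU145. It was at 134, 144 and 153 CPM with palbociclib, all below the 225, 214 and 237 CPM with DMSO (-0.62, SE 0.07, adjusted p = 8.34e-07). In C4-2 its groups overlapped, at 574, 579 and 577 CPM against 587 and 551 CPM (-0.03, SE 0.04, adjusted p = 0.529). The interaction was -0.56 (SE 0.09, adjusted p = 2.11e-06). The other proteases rose by 0.30 (CTSB), 0.46 (CTSL), 0.54 (CTSA) and 0.55 (CTSD) in C4-2, and by 0.55, 0.58, 0.97 and 0.90 in DU145. CTSA is the carboxypeptidase that protects GLB1 and NEU1 in a complex, and CTSD is the main aspartic protease of the lysosome. CTSD shares 52.7% of its exon bases with other annotated genes.

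The 10 glycosidases and sulfatases, which take sugars and sulfates off glycans, were the most mixed role. In C4-2 5 of 9 rose and 1 fell, and in DU145 5 of 10 rose and 3 fell. NEU1, the sialidase of the lysosome (chr6:31857659-31862906, minus strand), had the largest rise of all listed genes in DU145. It was at 141, 139 and 145 CPM with palbociclib against 34.6, 30.3 and 33.6 CPM with DMSO. The groups were widely apart, with a 4.38-fold rise (log2 fold change 2.13, SE 0.08, adjusted p = 7.74e-13).

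NEU1 was not tested in the libraries labelled C4-2, which held 1, 2 and 3 counts with palbociclib and 0 and 0 with DMSO. A count of 0 allows up to 0.86 CPM in DMSO replicate 1 and 0.995 CPM in DMSO replicate 2, taking 3 counts as the limit and counting error only. NEU1 lies in the MHC region, where the C4-2 table is short of reads. Between 29 and 33 Mb of chromosome 6, 40 of 65 protein-coding genes with at least 5 CPM in DU145 were under 1 CPM in C4-2 (61.5%). Elsewhere the share was 556 of 10310 genes (5.39%). The NEU1 counts of that table were therefore not read as a level.

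GLB1, the beta-galactosidase, moved in opposite directions. In C4-2 it was at 112, 122 and 104 CPM against 80.0 and 83.2 CPM, above all controls (0.41, SE 0.08, adjusted p = 9.53e-06). In DU145 it was at 55.8, 53.0 and 53.7 CPM against 74.2, 71.6 and 78.4 CPM, below all controls (-0.44, SE 0.07, adjusted p = 5.74e-05). MANBA, the beta-mannosidase, had the same pattern and, among the called interactions, the largest difference toward C4-2. It was at 46.7, 49.1 and 48.5 CPM against 29.5 and 24.9 CPM in C4-2 (0.77, SE 0.13, adjusted p = 2.34e-07). DU145 libraries had it at 17.9, 21.8 and 17.5 CPM against 26.3, 28.0 and 24.0 CPM, again without overlap (-0.43, SE 0.10, adjusted p = 0.00186). The interactions were -0.82 (SE 0.12, adjusted p = 4.34e-07) for GLB1 and -1.16 (SE 0.18, adjusted p = 9.4e-07) for MANBA.

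GAA, the acid alpha-glucosidase that degrades glycogen, was low in C4-2 and rose there from 4.58 and 4.64 CPM to 8.31, 11.5 and 9.77 CPM. The groups were apart (1.04, SE 0.29, adjusted p = 0.00199), but DESeq2 did not call it (1.05, adjusted p = 0.0571). In DU145 its groups overlapped at 67.5, 68.7 and 78.0 CPM against 73.0, 72.2 and 83.7 CPM (-0.07, SE 0.08, adjusted p = 0.484). The interaction was -1.08 (SE 0.30, adjusted p = 0.00363). Its promoter holds the full palindrome at 2 places.

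GUSB, the beta-glucuronidase often used as a reference gene in PCR, fell in both lines. C4-2 libraries held 30.5, 39.9 and 30.2 CPM against 45.3 and 42.1 CPM (-0.45, SE 0.12, adjusted p = 0.00164), and DU145 libraries 53.1, 51.1 and 54.5 CPM against 65.1, 62.5 and 64.0 CPM (-0.25, SE 0.07, adjusted p = 0.00698). All palbociclib libraries lay below all controls in each line. The C4-2 call was lost with DESeq2 (-0.43, adjusted p = 0.0793) and the DU145 call without palbociclib replicate 2 (-0.21, adjusted p = 0.0503).

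Among the other glycan-degrading enzymes, GLA (alpha-galactosidase) and NAGLU rose in DU145 by 1.01 and 0.95 and were not called in C4-2 (0.04 and 0.39). The NAGLU calls were not stable. In C4-2 (adjusted p = 0.0529) 7 of 11 alternatives left it uncalled and the others called it, among them library totals (0.44, adjusted p = 0.0286), leaving out palbociclib replicate 1 (0.46, adjusted p = 0.0341) and leaving out DMSO replicate 1 (0.66, adjusted p = 0.0164). Its interaction (0.59, adjusted p = 0.0286) held in 11 of 18. It was lost with DESeq2 (0.54, adjusted p = 0.0635), RLE size factors (0.54, adjusted p = 0.0522) and library totals (0.49, adjusted p = 0.0757). It was also lost without C4-2 DMSO replicate 1 (0.31, adjusted p = 0.501), C4-2 palbociclib replicate 1 (0.51, adjusted p = 0.0902) or 2 (0.55, adjusted p = 0.0669), and without DU145 DMSO replicate 2 (0.50, adjusted p = 0.0628). HEXA, the alpha subunit of beta-hexosaminidase, rose by 0.83 in C4-2 and 0.46 in DU145. SGSH, a heparan sulfate sulfamidase, rose by 0.73 and 0.60, and IDS had 0.09 and 0.11 without a call. The SGSH call in C4-2 rested on few reads and was lost with DESeq2 (adjusted p = 0.188). Leaving out DMSO replicate 1 (0.41, adjusted p = 0.352) or palbociclib replicate 2 (0.64, adjusted p = 0.0842) also ended it.

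ASAH1, the acid ceramidase, had the largest rise of the 4 lipid hydrolases in both lines. C4-2 libraries held 95.5, 104 and 98.6 CPM against 57.0 and 50.1 CPM (0.84, SE 0.09, adjusted p = 3.36e-13). DU145 libraries held 152, 158 and 134 CPM against 51.8, 54.7 and 49.5 CPM (1.54, SE 0.08, adjusted p = 2.73e-11). Neither pair of groups overlapped, and the rise was larger in DU145 by 0.73 (SE 0.13, adjusted p = 2e-05). PPT1, the palmitoyl-protein thioesterase, rose by 0.19 in C4-2 and 0.29 in DU145, and its C4-2 call was lost with DESeq2 (0.20, adjusted p = 0.0954). Leaving out DMSO replicate 1 ended it too (0.16, adjusted p = 0.0889). On the opposite strand CAP1, at a mean of 620 CPM in C4-2 and 206 CPM in DU145, shares 23.4% of the exon bases of PPT1.

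LIPA, the acid lipase that frees cholesterol from its esters (chr10:89213569-89414557, minus strand), rose in C4-2. It was at 115, 105 and 113 CPM against 61.3 and 71.6 CPM, without overlap (0.70, SE 0.08, adjusted p = 1.68e-11). In DU145 it was at 94.8, 90.7 and 79.3 CPM against 96.8, 102 and 94.3 CPM, where the groups overlapped (-0.12, SE 0.08, adjusted p = 0.177). With the replicate number as a block the DU145 value was called lower (-0.12, adjusted p = 0.0265). The interaction was -0.79 (SE 0.13, adjusted p = 2.46e-06). SMPD1 stayed without a call, at 22.5 to 26.4 CPM against 21.5 and 19.9 CPM in C4-2 (0.16, SE 0.16) and 25.2 to 29.2 CPM against 21.7 to 26 CPM in DU145 (0.17, SE 0.10).

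PSAP, the precursor of the saposins that present sphingolipids to their hydrolases, was the most abundant listed transcript per kilobase in DU145. With DMSO it stood at 381 CPM per kilobase there and at 167 in C4-2, where CTSZ was higher at 279. PSAP went from 546 and 535 CPM to 1009, 1003 and 988 CPM in C4-2 (0.84, SE 0.03, adjusted p = 3.81e-36). In DU145 it went from 1253, 1216 and 1233 CPM to 1465, 1464 and 1517 CPM (0.29, SE 0.05, adjusted p = 0.000161). The groups were apart in both lines and the DU145 response was smaller by an interaction of -0.52 (SE 0.07, adjusted p = 1.77e-07).

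GM2A, the activator of ganglioside breakdown, rose in C4-2 from 50.1 and 54.7 CPM to 85.5, 74.0 and 83.2 CPM (0.59, SE 0.10, adjusted p = 1.76e-07). In DU145 its groups overlapped at 21.9, 22.5 and 21.6 CPM against 22.5, 21.3 and 21.8 CPM (0.03, SE 0.09, adjusted p = 0.763). Both activators thus had the larger response in C4-2, with an interaction of -0.52 for GM2A as well (SE 0.14, adjusted p = 0.00429). Without C4-2 DMSO replicate 1 the GM2A interaction was not called (-0.46, adjusted p = 0.0517).

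**Figure D5:**
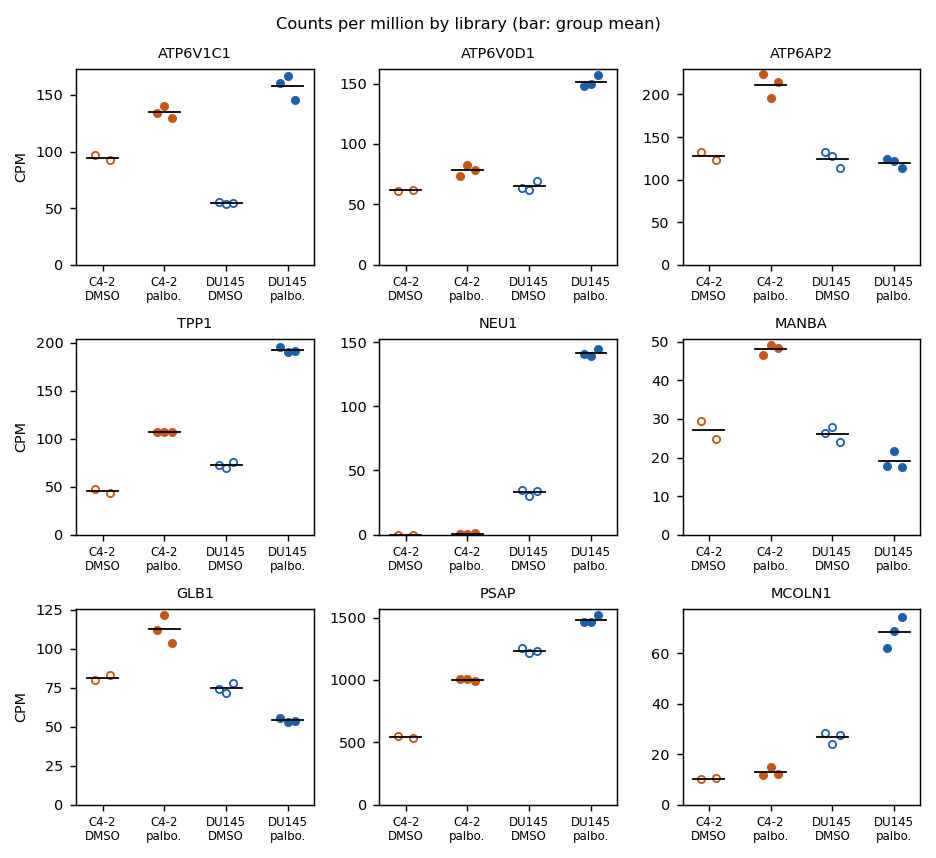
CPM of 9 listed genes in each library, filled points for palbociclib and open points for DMSO, with a bar at the group mean and each y axis starting at 0. MANBA and GLB1 are above the controls in C4-2 and below them in DU145, and NEU1 is near 0 in all 5 libraries labelled C4-2.

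In the lysosomal membrane, 5 of 6 genes rose in DU145 and 3 of 5 in C4-2. MCOLN1, a calcium-releasing channel, went in DU145 from 28.4, 23.9 and 27.7 CPM to 62.2, 68.8 and 74.2 CPM (1.38, SE 0.09, adjusted p = 8.41e-10). C4-2 libraries held 11.8, 14.9 and 12.1 CPM against 10.0 and 10.6 CPM, a separation too small to be called (0.27, SE 0.22, adjusted p = 0.315). The interaction was 1.14 (SE 0.25, adjusted p = 0.000249). CD63, a tetraspanin of lysosomes and exosomes, was at 563, 550 and 592 CPM against 291, 282 and 299 CPM in DU145 (0.99, SE 0.06, adjusted p = 3.02e-10). Its C4-2 groups overlapped at 423, 381 and 364 CPM against 354 and 368 CPM (0.06, SE 0.05, adjusted p = 0.276), and the interaction was 0.96 (SE 0.09, adjusted p = 2.76e-12). CD63 was called in C4-2 without palbociclib replicate 3 (0.12, adjusted p = 0.0463).

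SCARB2, an abundant membrane glycoprotein of the lysosome also known as LIMP2, had the reverse pattern. It rose in C4-2 from 333 and 327 CPM to 535, 559 and 537 CPM (0.67, SE 0.04, adjusted p = 7.4e-25). In DU145 the libraries held 128, 122 and 115 CPM against 121, 117 and 113 CPM, which overlapped (0.08, SE 0.07, adjusted p = 0.347). The interaction was -0.56 (SE 0.09, adjusted p = 2.07e-06). The major glycoproteins LAMP1 and LAMP2 rose in both lines, by 0.56 and 0.32 in C4-2 and by 0.53 and 0.71 in DU145. CLN3 had 0 to 2 counts per library in C4-2 and was not tested there. In DU145 it rose from 13, 9 and 10 counts to 25, 22 and 24 counts (1.13, SE 0.34, adjusted p = 0.00833), and 30.9% of its exon bases are shared with other genes.

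The genes with the TCACGTG motif were set beside those without it as a description, over the 30 genes with a matched promoter. The 13 genes without a promoter entry are in neither group. All of those 13 but MANBA rose in DU145, and all but ATP6V1B2, ATP6V0E1 and NAGLU rose in C4-2. The contrast therefore depends on which promoters were matched. In DU145, 9 of 10 with the motif rose and 0 fell (median log2 fold change 0.98), and 11 of 20 without it rose and 3 fell (median 0.38). In C4-2, 6 of 8 tested genes with the motif rose and 0 fell (median 0.52), and 10 of 20 without it rose and 1 fell (median 0.22). With DESeq2, 4 of those 8 rose, and the counts of 0 with the motif stayed at 0, also at an unadjusted p under 0.05. ATP6V1F, with a rise of 1.47 in DU145, was among those without it in this window, and GAA was the gene with the motif that was not called in DU145.

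Of 130 further genes chosen by textbook role, 54 of 112 tested rose and 16 fell in C4-2 (median 0.25). In DU145, 48 of 117 rose and 34 fell (median 0.10). Those shares stand beside the background of 25.3% higher and 26.7% lower in C4-2, and 28.8% and 29.2% in DU145.

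Genes for proteins that assemble or regulate the V-ATPase were mostly lower in DU145, where 8 of 11 fell and 0 rose. In C4-2, 6 of 11 rose and 1 fell. DESeq2 gave 8 and 0 in DU145, with 0 higher at an unadjusted p under 0.05 as well, and 4 and 0 in C4-2. In DU145 ROGDI fell by 1.76 (SE 0.14, adjusted p = 1.06e-08), MEAK7 by 0.85 (SE 0.09) and NCOA7 by 0.73 (SE 0.08). In C4-2 NCOA7 rose by 0.77 (SE 0.12, adjusted p = 4.07e-08), DMXL2 by 0.49 (SE 0.09) and DMXL1 by 0.38 (SE 0.09). Most of this list thus fell in DU145, where most of the listed pump subunits rose. VMA21 (0.16), TMEM199 (0.29) and WDR7 (0.16) were not called there, and ATP6AP1, which also serves assembly, rose by 0.67. For the 11 alternative pump subunits, 1 of 5 tested rose and 1 fell in C4-2 (median 0.14). In DU145, 3 of 8 tested rose and 2 fell (median -0.06). ATP6V0A2 rose in both lines (0.65 in C4-2 and 0.42 in DU145). TCIRG1, the osteoclast form of the large membrane subunit, fell in C4-2 (-0.41) and rose in DU145 (0.48), and ATP6V0A4, the kidney form, fell in DU145 (-1.48).

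Further hydrolases rose in 18 of 33 cases and fell in 3 in C4-2, and in DU145 11 of 34 rose and 10 fell. Among those with the smallest adjusted p in C4-2 were DNASE2 (0.82), the DNase of the lysosome, and the fucosidase FUCA1 (1.01). In DU145 SCPEP1, a serine carboxypeptidase, rose by 0.74. Further membrane proteins rose in 16 of 25 cases in C4-2, and 1 fell. The smallest adjusted p there belonged to CD164 (0.77), LITAF (0.70) and OSTM1 (0.98). In DU145 12 of 26 rose and 8 fell, and GPNMB (2.52), the chloride-proton exchanger CLCN7 (1.47) and its partner OSTM1 (1.47) had the smallest adjusted p.

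Genes for sorting to the lysosome, some of which route hydrolases by mannose 6-phosphate, rose in 13 of 22 cases and fell in 3 in DU145. There the 2 receptors of this tag rose, M6PR by 1.18 and IGF2R by 0.66, as did the retromer gene VPS26A by 0.64. In C4-2, 6 of 21 rose and 7 fell, with IGF2R at 0.56, the adaptor AP1M1 at -0.60 and GNPTAB, which helps to make the tag, at -0.69. In the TFEB family and its Rag regulators, 7 of 17 rose and 3 fell in C4-2, and 9 of 16 rose and 3 fell in DU145. TFEB itself fell in both lines (-0.55, adjusted p = 0.0457 in C4-2 and -1.01, adjusted p = 3.69e-07 in DU145), and TFE3 rose in both (0.19, adjusted p = 0.0299 and 0.53, adjusted p = 1.29e-05). FNIP1 rose by 0.99 in C4-2 and 1.57 in DU145, and RRAGC by 1.52 and 1.27. FLCN, the partner of FNIP1, rose by 1.5 in DU145, and MITF fell by 1.26 in C4-2.

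Macrophages are rich in lysosomes, so 8 of their markers were summed in the same libraries. The sum was 14.8 to 18.0 CPM with palbociclib and 10.6 to 12.6 CPM with DMSO in C4-2, and 5.76 to 7.14 CPM against 2.66 to 3.78 CPM in DU145. In DU145 CD14 rose by 3.49 (adjusted p = 3.87e-08), and in C4-2 MSR1 rose by 1.06 (adjusted p = 0.000191) and CSF1R fell by 1.76 (adjusted p = 0.00238). AIF1 was at 0 in every library used. It lies in the MHC region, where the C4-2 table is short of reads, so its C4-2 zeros were not read as a level. CD163 and TYROBP were at 0 in all DU145 libraries, as was the leukocyte marker PTPRC. Summed epithelial markers were lower with palbociclib, at 456 to 497 CPM against 1186 to 1195 CPM in C4-2 and at 2068 to 2213 CPM against 3221 to 3563 CPM in DU145. The part of these shifts in the lysosomal results was not tested.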

How the data were processed

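RNA was sequenced from 12 libraries of 2 prostate cancer lines, built with a directional kit per the labels' protocols. The authors deposited raw read counts per gene, 1 table per line. Per the file headers, the C4-2 counts were made with featureCounts 2.0.1 on the Ensembl 107 annotation without a strand setting, and the submitters' processing notes name hg38. The sources used here name no counter or strand setting for the DU145 counts. The gene lengths used for CPM per kilobase are those the authors deposited in the DU145 table, as another kind of value.

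Differences were tested by edgeR 4.0.16 under R 4.3.3 (filterByExpr by group, TMM, robust quasi-likelihood F test, Benjamini-Hochberg adjustment over all tested genes at 0.05). Each line was fitted alone, on 11943 genes for C4-2 and 15361 for DU145, and a joint fit of 18139 genes tested the interaction. C4-2 DMSO replicate 3, at 0 in every gene, was left out. CPM used library totals. The code was tested on simulated counts. Replicates of a group differed by more than counting noise (chi-square over its degrees of freedom 1.14 to 1.18 in C4-2 and 2.36 to 8.34 in DU145). The excess was small in C4-2. There edgeR's common coefficient of variation beyond counting noise was 0.0195, against 0.0718 in DU145, so the C4-2 p-values rest mostly on read sampling.

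The genes and lists were chosen with earlier results of these data known, so no p was adjusted over a list. Values per library are given for NEU1, for the largest rise and the largest fall or smallest rise of each role in each line, and for the 4 largest interactions in each direction. Other lysosome genes were named by up to 3 smallest adjusted p per list and line. Some genes that this rule gave are not reported here. CLN3, ATP6V0C and PPT1 were added for their low counts or shared exons, and TFEB, TFE3 and macrophage markers after their values were seen.

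Same-numbered DU145 libraries deviated together from their group means (correlations 0.262, 0.421 and 0.63 over 7944 genes). No label says that the numbers pair them, so the main fits were unpaired and a replicate block was run as an alternative. Libraries 1 and 2 also deviated together across numbers (0.407 and 0.198), apart from those numbered 3 (-0.307 to -0.547). In C4-2 the correlations were 0.001 and -0.014. Alternatives were size factors, library totals, other filters, DESeq2 1.42.0, a replicate block, a fold limit, another makeup of the hydrolase class and leaving out each library. E-boxes were matched in RefSeq promoters, and exon overlap was taken from a GENCODE annotation of the same build.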

Additional observations from a re-analysis of the deposited data

Results flagged for a closer look

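For 29 of the 43 genes the response to palbociclib differed between DU145 and the libraries labelled C4-2, by the interaction term of the joint edgeR fit (adjusted p under 0.05). Each value is the response in DU145 less that in C4-2, on the log2 scale.

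Most of the pump subunits responded more in DU145. The differences were 1.26 for ATP6V1F, 1.20 for ATP6V0B, 1.14 for ATP6V1C1, 1.12 for ATP6V1B2, 1.04 for ATP6V1E1, 1.01 for ATP6V0E1, 0.98 for ATP6V0D1, 0.78 for ATP6V0A1, 0.61 for ATP6V1D, 0.41 for ATP6V1H and 0.40 for ATP6AP1. ATP6AP2 was the pump gene with the larger response in C4-2, at -0.68.

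Among hydrolases the differences ran in both directions. They were 1.0 for GLA, 0.73 for ASAH1, 0.59 for NAGLU, 0.47 for CTSA, 0.38 for CTSD and 0.29 for CTSB. On the other side stood CTSZ at -0.56, LIPA at -0.79, GLB1 at -0.82, GAA at -1.08 and MANBA at -1.16.

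Of the membrane proteins, MCOLN1 (1.14), CD63 (0.96) and LAMP2 (0.42) responded more in DU145, and SCARB2 (-0.56) more in C4-2. The activators PSAP (-0.52) and GM2A (-0.52) also responded more in C4-2. The 2 lines lie in separate tables with different counting and depth, and the line and the table cannot be told apart.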

How the results depend on the processing

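No called result changed direction under the alternatives run. Values without a call could cross 0, as for ATP6V0C in C4-2 (-0.64 to 0.26). Apart from the fold limit, 21 of the 27 called genes of C4-2 kept their call in every alternative, as did 35 of 36 in DU145 and 25 of 29 interactions. Requiring a 1.5-fold change left 11 higher genes in C4-2 (26 without it), 0 lower (1 without it), 1 lower in DU145 (4 without it) and 19 interactions (29 without it). DESeq2 called 0 lower genes in C4-2. Leaving out 1 library at a time gave 25 to 28 higher and 1 to 2 lower genes in C4-2 (2, with ATP6V0B, without DMSO replicate 1), 3 to 4 lower in DU145 and 27 to 31 interactions. With 1 DMSO library left out in C4-2, the lone control is assumed to vary like the palbociclib group. The median of the C4-2 V-ATPase was 0.34 with library totals (0.30 otherwise). That of the C4-2 hydrolases was 0.51 with library totals, 0.48 without a filter, 0.43 with a stricter filter, 0.50 with activators and membrane proteins added, and 0.44 to 0.51 without single libraries (0.46 otherwise). With the replicate block it was 0.51, and the C4-2 call of PPT1 was lost (0.16, adjusted p = 0.0518), while the interaction of ATP6V1A was called (0.29, adjusted p = 0.0362). Beside LIPA in DU145 and TPP1 in the interaction, the block changed no other call. Interactions of ATP6V1H (0.31, adjusted p = 0.0535), CTSB (0.18, adjusted p = 0.0909) and NAGLU (0.49, adjusted p = 0.0757) were lost with library totals, and that of GM2A without C4-2 DMSO replicate 1 (-0.46, adjusted p = 0.0517). The cause was not tested. Leaving out both libraries numbered 3 was planned for the joint fit and was added for the DU145 fit alone after seeing the data. The depth of the C4-2 table limits GAA and SGSH.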
